A study of Rattus norvegicus with 24 samples.

Results

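Plekhb1, Mag, Sirt2 and Nkx6-2 are 4 genes of the oligodendrocyte, the cell that wraps axons in myelin, and all 4 lie on rat chromosome 1. They are 4 of the 32883 annotated genes counted by RNA-Seq in whole hippocampus, and all 4 were among the 13838 genes expressed highly enough to be tested (1 CPM, a count scaled to the library's total, reached by 6 or more of the 23 rats used). The question was whether Plekhb1 differed between 2 selectively bred rat lines together with other myelin genes or alone. Plekhb1 (ENSRNOG00000018627) was selected on its measured Log2FC between the lines in these same rats, and Mag (ENSRNOG00000021023), Sirt2 (ENSRNOG00000020102) and Nkx6-2 (ENSRNOG00000017748) as oligodendrocyte genes set beside it. The line difference of these 4 genes is therefore given as a description, without a test.

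The rats were F0 animals of the bred High Responder (bHR) and bred Low Responder (bLR) lines, bred apart over generations by how much they moved about in a place unknown to them (the LocoScore). The groups were 6 bHR males, 6 bHR females, 6 bLR males and 6 bLR females. The labels give 12 families with a brother and a sister each, so a line is represented by 6 families, whereas the methods of the study describe each rat as coming from a family of its own. Every brother and sister comparison below rests on the labels. By the labels the 12 males were 151 to 165 days old and the 12 females 187 to 192 days, while the methods give younger ages, and the sexes were dissected on separate days, so sex, age and dissection day cannot be told apart. A bHR female of family H05 with an RNA integrity number of 6.3 was labelled as failing quality control and left out, which left 11 bHRs and 12 bLRs. Library totals ran from 16824899 to 28443049 counts, and each of the 4 genes had 532 counts or more in each library.

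Plekhb1 encodes a small membrane protein with a pleckstrin homology domain, also called evectin-1, known from photoreceptors and from myelinating glia. Mag, the myelin-associated glycoprotein, is an adhesion molecule of the myelin membrane that faces the axon. Sirt2 is an NAD-dependent deacetylase that acts on tubulin and is carried into the myelin sheath, and Nkx6-2 is a homeodomain transcription factor of maturing oligodendrocytes. Myelin genes are switched on together as an oligodendrocyte differentiates, largely under the transcription factors Sox10 and Myrf, and their summed level in a piece of tissue is often read as a gauge of how much mature oligodendrocyte RNA it holds.

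In the genome build used for counting (Rnor6), Plekhb1 occupies positions 165665909 to 165680206 of chromosome 1 (minus strand). Sirt2 lies on the plus strand from 86948918 to 86971952, Mag on the minus strand from 89345429 to 89360733 and Nkx6-2 on the minus strand from 211922389 to 211923929. The 150 bases before the outermost annotated start of each gene are shown because they are where regulation shared between the genes could be sought. They come from RefSeq in another build (GRCr8), each 5′ to 3′ in the direction of its gene, at chr1:164425217-164425366 (minus strand) for Plekhb1, chr1:95291134-95291283 (minus strand) for Mag, chr1:93181322-93181471 (plus strand) for Sirt2 and chr1:203813123-203813272 (minus strand) for Nkx6-2. Capitals mark a SOX-type motif in Mag and the longest run of bases that any pair of the 4 stretches shared in Plekhb1 and Sirt2.
Plekhb1: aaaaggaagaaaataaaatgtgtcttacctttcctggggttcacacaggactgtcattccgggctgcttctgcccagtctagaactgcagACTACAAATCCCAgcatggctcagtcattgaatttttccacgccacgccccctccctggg
Mag: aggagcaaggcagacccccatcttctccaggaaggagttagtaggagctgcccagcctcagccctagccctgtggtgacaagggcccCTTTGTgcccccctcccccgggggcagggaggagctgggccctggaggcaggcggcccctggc
Sirt2: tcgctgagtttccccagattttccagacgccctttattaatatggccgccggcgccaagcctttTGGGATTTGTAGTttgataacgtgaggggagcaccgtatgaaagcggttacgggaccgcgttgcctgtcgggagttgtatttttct
Nkx6-2: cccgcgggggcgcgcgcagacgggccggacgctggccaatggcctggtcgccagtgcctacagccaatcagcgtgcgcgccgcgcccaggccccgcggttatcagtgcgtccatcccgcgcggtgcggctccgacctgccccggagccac

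The motifs searched on both strands were ACAAAG and ACAATG for SOX factors and CTGGCAC and CTGGTAC for MYRF. Mag held ACAAAG on the strand opposite to the gene, 63 to 58 bases before its start, and ACAAAG occurred in 10.1% of the 24679 genes with such a stretch. ACAATG occurred in 7.53%, CTGGCAC in 2.22% and CTGGTAC in 1.03% of these genes, and none of the 3 was in the 150 bases of the 4 genes shown. Plekhb1 and Sirt2 shared a run of 13 bases, on opposite strands, starting 60 bases before the start of Plekhb1 and 86 bases before that of Sirt2. The same run was found before 19 of the 24679 genes (0.077%). The longest runs shared by the other 5 pairs were 7 to 9 bases, so Plekhb1 and Sirt2 had the longest match, which was picked out after the sequences were seen. GC content was 50% for Plekhb1, 51.3% for Sirt2, 69.3% for Mag and 76.7% for Nkx6-2, and the number of CpG dinucleotides was 3, 12, 2 and 23, respectively.

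Plekhb1 was higher in bLRs than in bHRs, whereas Mag and Sirt2 had similar means in the lines and Nkx6-2 had a lower mean in bLRs. Levels are CPM after normalization by the trimmed mean of M-values (TMM). Plekhb1 was at 187.5 to 401.7 CPM in the 11 bHRs, with a median of 260.9, and at 250.9 to 543.3 CPM in the 12 bLRs, with a median of 357.2. The means were 266 ± 61.3 CPM (SD, n = 11) and 371 ± 78.5 CPM (SD, n = 12). The Log2FC (bLR minus bHR) was 0.57 (SE 0.10, 95% interval 0.35 to 0.79), a 1.48-fold higher level. The ranges of the lines overlapped: 3 of 12 bLRs were above the highest bHR and 5 of 11 bHRs were below the lowest bLR. In tissue RNA, fewer cells of a type and less RNA per cell cannot be told apart.

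By sex, the 5 bHR females used had Plekhb1 at 187.5, 207.8, 222.4, 222.8 and 238.2 CPM. The 6 bLR females had 250.9 to 390.2 CPM with a median of 345.7, so that none of these bHR females reached any bLR female. The bHR female of family H05 that was left out for its low RIN had 265.3 CPM, above the bLR female of L06 at 250.9 CPM, so the groups overlap with that rat included. In males the 6 bHRs had 260.9 to 401.7 CPM with a median of 300.1 and the 6 bLRs 311.1 to 543.3 CPM with a median of 393.3, and the groups overlapped through the bHR male of family H05 at 401.7 CPM and that of family H11 at 317.7 CPM. The Log2FC of lineage, from the interaction fit with %rRNA as the only technical covariate, was 0.42 (SE 0.15) in males and 0.62 (SE 0.16) in females.

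Mag varied more between rats of one line than between the lines. It was at 41.97 to 115.8 CPM in bHRs (median 60.85) and at 38.38 to 138.2 CPM in bLRs (median 58.09), and its means were 70.0 ± 26.7 CPM (SD, n = 11) and 73.3 ± 33.8 CPM (SD, n = 12). The Log2FC was -0.04 (SE 0.14, 95% interval -0.33 to 0.25). The sign was not settled: the Log2FC was 0.06 when no technical covariate was fitted and 0.17 when %rRNA alone was, and by sex, in a fit that also had %rRNA only, it was 0.23 (SE 0.24) in males and 0.10 (SE 0.25) in females. Over all settings it ran from -0.13 to 0.28. Of the 12 bLRs, 2 were above the highest bHR and 1 was below the lowest. The 6 rats above 100 CPM were the brother and sister of families H02 and L03 and the females of H11 and L06.

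Sirt2 had similar means in the lines. It was at 62.33 to 124.1 CPM in bHRs (median 99.18) and 71.93 to 137.7 CPM in bLRs (median 96.19), with means of 95.8 ± 20.3 CPM (SD, n = 11) and 101 ± 18.0 CPM (SD, n = 12). The Log2FC was 0.05 (SE 0.09, 95% interval -0.13 to 0.22). Of the 12 bLRs, 1 was above the highest bHR, and 1 of 11 bHRs was below the lowest bLR. By sex, in the fit with %rRNA only, it was 0.0037 (SE 0.13) for males and 0.29 (SE 0.14) for females. Over all settings the range was -0.0024 to 0.27.

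Nkx6-2 leaned the other way. It was at 29.02 to 94.91 CPM in bHRs (median 64.1) and 26.37 to 68.9 CPM in bLRs (median 45.01), and its means were 60.8 ± 20.9 CPM (SD, n = 11) and 45.9 ± 10.5 CPM (SD, n = 12). The Log2FC was -0.26 (SE 0.12, 95% interval -0.51 to -0.00099). Of the 11 bHRs, 4 were above the highest bLR, and the remaining bHRs were spread through the bLR range. It was -0.40 without technical covariates and also -0.40 with %rRNA only. By sex, in the fit with %rRNA only, it was -0.42 (SE 0.20) in males and -0.39 (SE 0.21) in females.

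**Figure D1:**
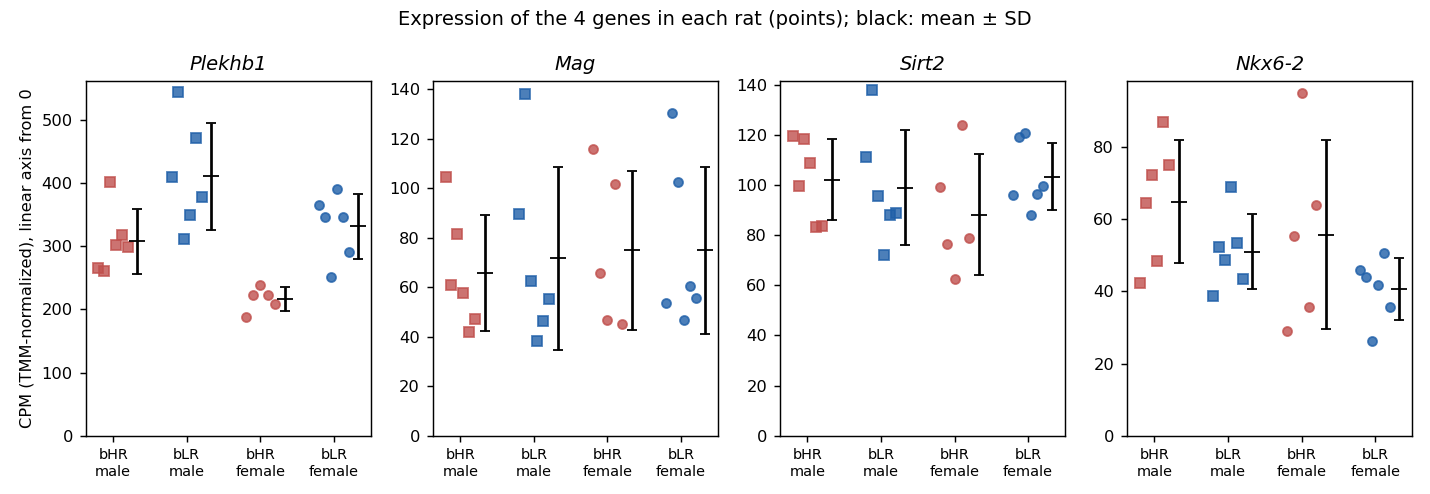
CPM (TMM-normalized, linear axis from 0) of Plekhb1, Mag, Sirt2 and Nkx6-2 in each of 23 rats by line and sex, with the mean and SD of each group in black. Plekhb1 was lowest in the 5 bHR females (187.5 to 238.2 CPM) and highest in the bLR males (311.1 to 543.3 CPM), whereas the groups overlapped widely for Mag and Sirt2.

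The level of Plekhb1 was also set against the other genes within each rat, which removes differences in library scaling. These ratios were not adjusted for %rRNA or %intergenic. The log2 ratio of Plekhb1 to the mean of Mag, Sirt2 and Nkx6-2 was 1.88 ± 0.27 (SD, n = 11; range 1.43 to 2.24) in bHRs and 2.44 ± 0.32 (SD, n = 12; range 1.86 to 2.97) in bLRs. Against each gene alone, the bHR and bLR means were 1.98 and 2.43 for Mag, 1.47 and 1.87 for Sirt2 and 2.18 and 3.02 for Nkx6-2. The SD of the ratio to Mag was 0.68 in bHRs and 0.65 in bLRs, more than the distance between those means, whereas for Nkx6-2 the SDs were 0.46 and 0.31. An oligodendrocyte index was formed as the mean log2 CPM of 13 genes, namely Mag, Sirt2, Opalin, Ppp1r14a, Elovl7, Car2, Cdc42ep2, Josd2, Carns1, Klk6, Il33, Insc and Edil3. The log2 ratio of Plekhb1 to this index was 2.86 ± 0.21 (SD, n = 11; range 2.50 to 3.17) in bHRs and 3.38 ± 0.24 (SD, n = 12; range 2.93 to 3.75) in bLRs. With the index as a covariate, the Log2FC of Plekhb1 was 0.57, the same to 2 decimals as without it. In the fit with %rRNA and %intergenic, the Log2FC of Plekhb1 minus the mean Log2FC of the other 3 genes was 0.65. It was 0.49 to 0.68 over 14 other settings and 0.58 to 0.71 without any 1 rat, given without a test.

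**Figure D2:**
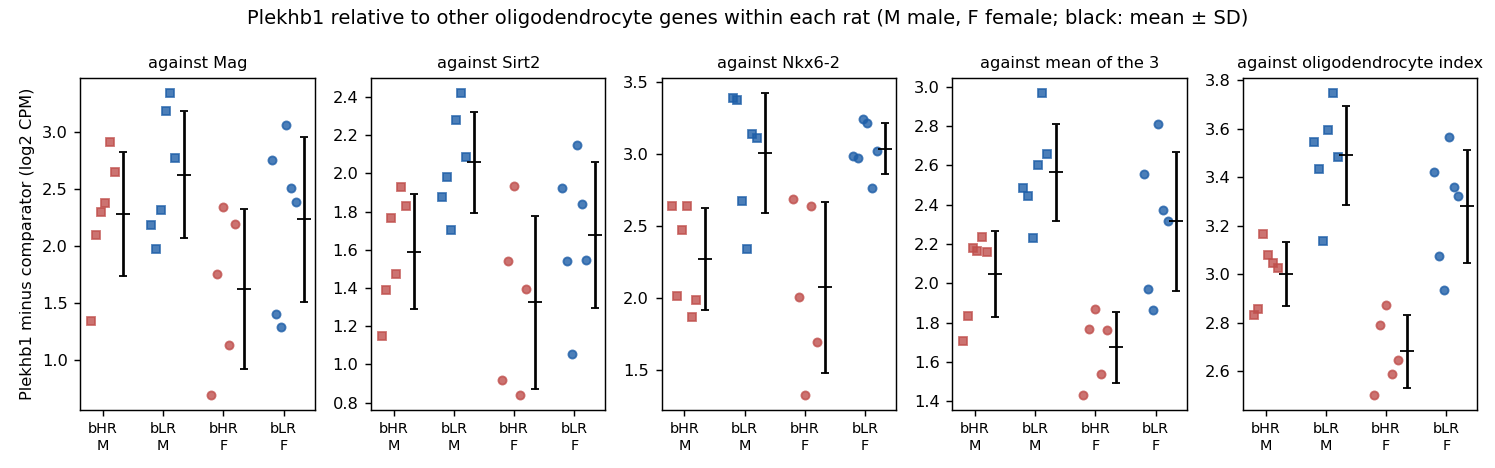
Log2 CPM of Plekhb1 minus that of Mag, Sirt2, Nkx6-2, their mean and the oligodendrocyte index in each of 23 rats, by line and sex (M male, F female), with mean and SD in black and a separate vertical scale in each panel. The bLR group means lie above the bHR means of the same sex in each panel, and the index panel has the smallest spread (SD 0.21 in bHRs and 0.24 in bLRs).

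Other genes of oligodendrocytes and myelin were taken from 5 lists, but gene names were at hand for few of the Ensembl identifiers. Names could be matched for 3 of 17 myelin proteins, 1 of 7 genes of myelin lipid synthesis, 3 of 9 transcription factors, 10 of 30 other genes of mature oligodendrocytes and 2 of 10 genes of progenitors and premyelinating cells. Without the 4 genes above this left 15, all of which were tested, and the other entries of the lists were not analysed here. None of the 15 passed for lineage (edgeR, quasi-likelihood test, FDR below 0.10), and 1 of 15 had an unadjusted p under 0.05, beside 1378 of all 13838 genes. limma-voom also called 0 of the 15, and DESeq2 called 1 (Opalin). Over all 13838 genes, 185 passed (1.34%), of which 107 (0.773%) were higher in bLRs and 78 (0.564%) higher in bHRs. This count was 329 with DESeq2, and leaving out 1 rat moved it to between 97 (the H02 bHR male) and 436 (the H12 bHR female). Since the line difference of Plekhb1 was what it was chosen for, these shares are not read against it. The lists, too, were chosen with earlier results of these data known, so their counts for lineage are a description.

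The median Log2FC of the 15 genes was -0.02, with 5 above and 10 below 0, beside a median of -0.0035 over all genes. The gene nearest to Plekhb1 in size was Opalin, a membrane protein of the mature oligodendrocyte. Opalin averaged 85.8 ± 22.6 CPM in the 11 bHRs (53.72 to 126.8) and 114 ± 30.9 CPM in the 12 bLRs (75.54 to 184), and its Log2FC of 0.44 (SE 0.13) did not pass (unadjusted p = 0.0024, FDR = 0.134 in edgeR). It was called when the bHR male of family H05 or that of H08 was left out. The Log2FC was 0.28 (SE 0.23) for Tcf7l2, a Wnt effector of premyelinating cells, 0.05 (SE 0.10) for Car2, the cytosolic carbonic anhydrase, and -0.07 (SE 0.21) for Myrf, the transcription factor that drives myelin genes. It was -0.10 (SE 0.13) for Ppp1r14a, a phosphatase inhibitor of myelinating cells, and -0.18 (SE 0.20) for Sox6, a factor of progenitors. The summed level of the 8 other genes of mature oligodendrocytes was 567.6 to 777.1 CPM in bHRs (median 663.1) and 513.7 to 798 CPM in bLRs (median 691.8), so the lines overlapped over nearly the whole range. Most of this sum came from Car2 (mean 278 CPM in bHRs and 293 CPM in bLRs) and Edil3 (263 and 269 CPM), so it says little about the rest.

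**Figure D3:**
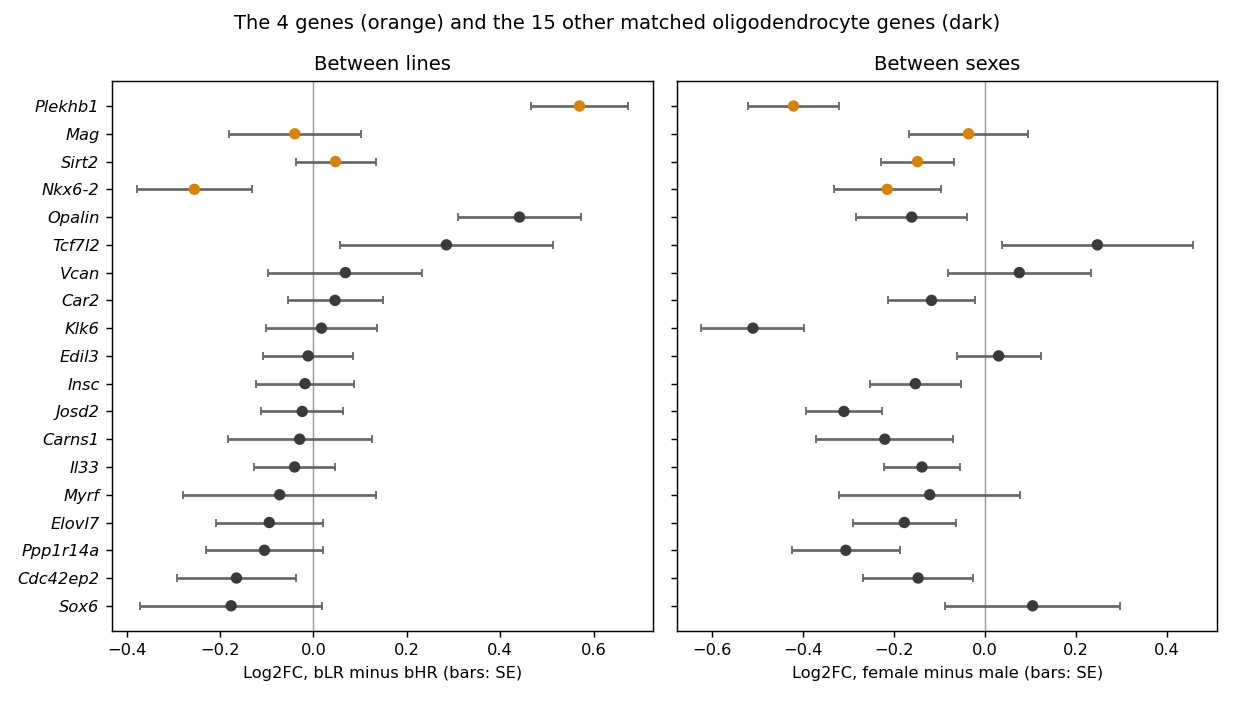
Log2FC with SE of the 4 genes (orange) and the 15 other matched oligodendrocyte genes (dark), for bLR minus bHR on the left and for female minus male on the right. Between the lines, Plekhb1 at 0.57, the value it was chosen for, and Opalin at 0.44 are highest, followed by Tcf7l2 at 0.28 (SE 0.23). Between the sexes Klk6 at -0.51 and Plekhb1 at -0.42 are lowest.

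The genes next to Plekhb1 on chromosome 1 were examined because a line difference can extend over linked genes. Rab6a, a small GTPase of Golgi transport, ends 1.7 kb from the 3′ end of Plekhb1 on the opposite strand, and the counting was strand-specific. Rab6a averaged 415 ± 128 CPM (SD) over the 11 bHRs and 407 ± 104 CPM (SD) over the 12 bLRs, and its Log2FC was -0.05 (SE 0.10, FDR = 0.92 in edgeR). Fam168a starts 44.2 kb from Plekhb1 on the other side and had a Log2FC of -0.29 (SE 0.16, FDR = 0.56 in edgeR). None of the 3 named genes on either side of Plekhb1 that passed the expression filter was called for lineage by edgeR, and none of the 6 had an unadjusted p under 0.05. These reached only from Coa4, 113.3 kb away, to Arhgef17, 231.5 kb away on the other side, and genes without a name were left out. Linked genes farther off were not examined here, among them Ucp2, which the paper names as a candidate tied to a chromosome 1 variant.

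For other cell types the markers at hand were few. Slc17a7, the vesicular glutamate transporter of excitatory neurons, was at 160.3 CPM or more in each of the 23 rats, as hippocampus should show, and had a Log2FC of lineage of 0.03 (SE 0.15; FDR = 0.98 in edgeR). Slc1a3, an astrocyte glutamate transporter, had 0.12 (SE 0.12; FDR = 0.82). Folr1 of the choroid plexus ranged from 2.395 to 55.18 CPM in bHRs and from 3.596 to 41.68 CPM in bLRs, and Pmp2, a marker of Schwann cells, did not exceed 5.7 CPM. No gene of the microglia and endothelium lists could be matched.

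The difference between lines was compared between the sexes with an interaction term. The lineage effect in females minus that in males was 0.20 (SE 0.22, 95% interval -0.25 to 0.64) for Plekhb1 on the log2 scale, -0.13 (SE 0.34) for Mag, 0.29 (SE 0.19) for Sirt2 and 0.03 (SE 0.29) for Nkx6-2. None passed, with FDR = 0.9999 for each in edgeR's quasi-likelihood test. Over all 13838 genes 0 (0%) passed and 325 had an unadjusted p under 0.05, and limma-voom and DESeq2 also called 0. The value for Nkx6-2 was -0.02 with DESeq2's size factors in place of TMM. The interval for Plekhb1 includes both a smaller and a larger line difference in females than in males.

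Plekhb1 was lower in females than in males. The 12 males had 260.9 to 543.3 CPM (median 333.6) and the 11 females 187.5 to 390.2 CPM (median 250.9). Means were 359 ± 85.7 CPM (SD, n = 12) and 279 ± 71.5 CPM (SD, n = 11). Within bHRs, each of the 6 males was above each of the 5 females used, but the female left out (265.3 CPM) was above the males of H04 (260.9 CPM) and H02 (264.8 CPM). In bLRs 3 of 6 males were above the highest female. The sister had the lower level in 10 of 11 families. The Log2FC (female minus male) was -0.42 (SE 0.10, 95% interval -0.62 to -0.22) and passed narrowly (FDR = 0.0846, edgeR), as did 49 of all 13838 genes (0.354%). The sex Log2FC of Plekhb1 kept its call with limma-voom (FDR = 0.096) and DESeq2 (FDR = 0.0198) and lost it in the other 11 settings tried, in which the Log2FC was -0.20 to -0.42. With family as a block it was -0.38 (FDR = 0.24), and 19 genes passed for sex. It was also lost when any of 17 of the 23 rats was left out, with a Log2FC of -0.32 to -0.44, and held only without the bLR female of family L01, the bHR male of H04, the bHR female of H08 or the bLR male of L06, L07 or L10.

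The other 3 genes were not called for sex. The Log2FC was -0.04 (SE 0.13, FDR = 0.93) for Mag, which turned to 0.02 without TMM, -0.15 (SE 0.08, FDR = 0.49) for Sirt2 and -0.21 (SE 0.12, FDR = 0.50) for Nkx6-2 in the same edgeR fit. The sister was lower than the brother in 4 of 11 families for Mag, in 6 of 11 for Sirt2 and in 9 of 11 for Nkx6-2. Of the 15 other oligodendrocyte genes, 1 passed for sex and 3 had an unadjusted p under 0.05, beside 1553 of all 13838 genes. The gene that passed was Klk6, a secreted kallikrein protease of mature oligodendrocytes, with a Log2FC of -0.51 (SE 0.11, FDR = 0.0596 in edgeR). That call was lost in 7 other settings. With the index added, which contains Klk6, its Log2FC was -0.21, and in the other settings that lost the call it was -0.40 to -0.505. The call was also lost without any of 13 rats, and held only when the rat left out was the bLR female of L01, L06 or L09, the bLR male of L06, L07, L09 or L10, the bHR male of H04 or the bHR female of H08 or H12. Josd2, a deubiquitinase, had -0.31 (SE 0.08, FDR = 0.16) and Ppp1r14a -0.31 (SE 0.12, FDR = 0.34). The median over the 15 was -0.15, beside -0.03 over all genes. With the oligodendrocyte index as a covariate, the Log2FC of sex for Plekhb1 was -0.20 (FDR = 0.61).

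The erythrocyte gene Hbb was lower in females too, with a Log2FC of -2.02 (SE 0.34, FDR = 0.0027 in edgeR) and a range of 32.35 to 3499 CPM over the 23 rats. It was the only one of 6 erythrocyte markers with a matched name, and its part in the sex difference of Plekhb1 was not tested.

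Whether the genes moved together from rat to rat was tested on what the choice of genes did not use, the deviation of each rat from the mean of its line and sex. After TMM, Mag and Sirt2 rose and fell together, Nkx6-2 ran opposite to both, and Plekhb1 had r near 0 with Mag and Sirt2. With library size alone Plekhb1 had 0.77 with Mag and 0.79 with Sirt2, and Nkx6-2 no longer passed with either. In residuals of the full model with %rRNA and %intergenic, none of the 6 pairs passed, and r was 0.52 for Mag with Sirt2, 0.0013 for Mag with Nkx6-2 and -0.18 for Sirt2 with Nkx6-2. After TMM, the SD of these deviations was 0.60 for Mag, 0.44 for Nkx6-2, 0.28 for Sirt2 and 0.23 for Plekhb1 in log2 CPM, so on this scale Plekhb1 varied least of the 4.

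For Mag and Sirt2, Pearson's r was 0.90 (permutation p = 1e-05, the smallest that 100000 permutations can give, adjusted p = 6e-05) and Spearman's rho was 0.90 (adjusted p = 6e-05) over 23 rats. Without the 2 rats farthest from the median r was 0.90. For Mag and Nkx6-2, r was -0.62 (permutation p = 0.0032, adjusted p = 0.0064; rho -0.66, adjusted p = 0.0040), and -0.55 without the 2 farthest rats. For Sirt2 and Nkx6-2, r was -0.70 (permutation p = 0.0013, adjusted p = 0.0038; rho -0.70, adjusted p = 0.0035), and -0.64 without them. All p-values of these relations are two-sided, from permutations within line and sex, and adjusted over the 6 pairs. Such values were common after TMM. Of the 13837 other genes, 5388 had r above 0.5 with Mag and 4586 below -0.5, and for Sirt2 these were 5260 and 4470. Ranked from the highest r down, Nkx6-2 was only number 9799 for Mag and number 10434 for Sirt2, so the opposite course was not particular to it.

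Plekhb1 had r = 0.03 with Mag (permutation p = 0.91, adjusted p = 0.91; rho -0.09, adjusted p = 0.70) and r = 0.09 with Sirt2 (permutation p = 0.72, adjusted p = 0.86; rho -0.10, adjusted p = 0.70). Without the 2 farthest rats these were -0.26 and -0.18. With Nkx6-2, r was 0.41 (permutation p = 0.030, adjusted p = 0.045; rho 0.43, adjusted p = 0.054), and 0.35 without the 2 farthest rats, where it no longer passed (adjusted p = 0.20). It was also lost, at r = 0.31 to 0.41, without any of 12 rats, namely the bLR females of L01, L03, L06, L09 and L10, the bLR males of L09 and L10, the bHR females of H02, H04 and H08 and the bHR males of H02 and H11. Within the subgroups Plekhb1 and Mag had r = -0.02 in bHR males, -0.54 in bHR females, 0.58 in bLR males and -0.44 in bLR females, with no common sign.

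The correlation of Plekhb1 with the oligodendrocyte index within subgroups, an index that does not contain Plekhb1, was r = 0.61 (permutation p = 0.0091) and rho 0.55 (permutation p = 0.015) over 23 rats. The value was 0.51 without the 2 farthest rats. It was 0.46 (permutation p = 0.068) without the bLR male of family L03, which had the highest index and the highest Plekhb1 of all rats. In bHRs alone r was 0.68 (permutation p = 0.069, n = 11) and in bLRs alone 0.60 (permutation p = 0.056, n = 12). By subgroup it was 0.89 in bHR males, 0.73 in bLR males, 0.35 in bLR females and 0.04 in bHR females, and the difference between the sexes was not tested.

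**Figure D4:**
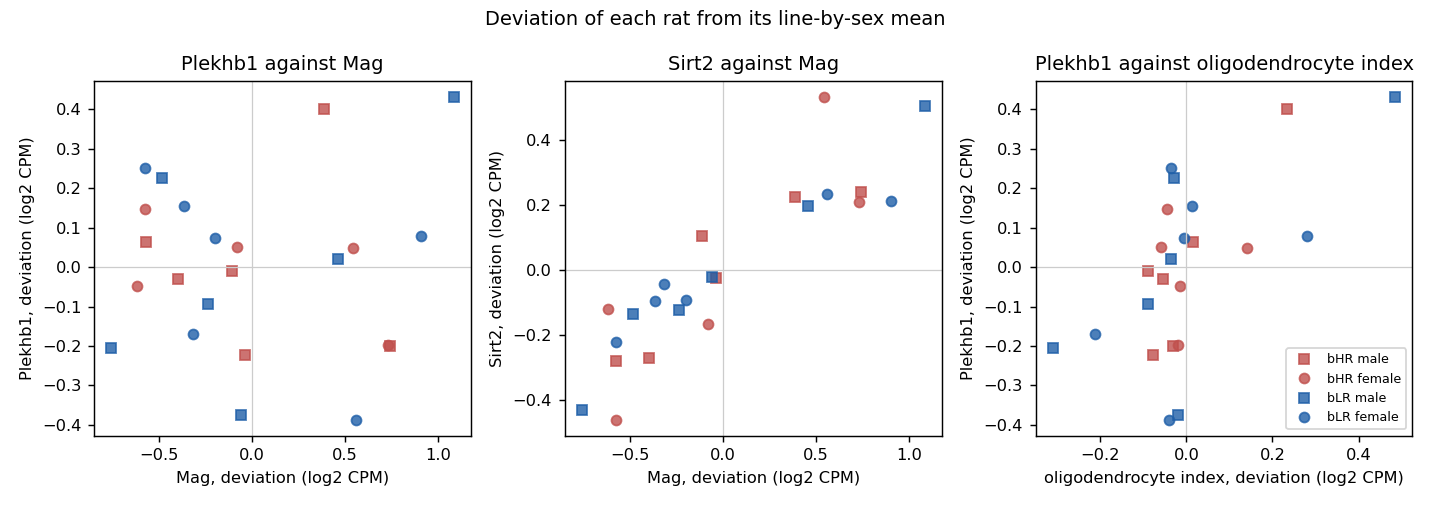
Deviation of each of 23 rats from the mean of its line and sex, in log2 CPM, for Plekhb1 against Mag, Sirt2 against Mag, and Plekhb1 against the oligodendrocyte index. Sirt2 and Mag lie along a line (r = 0.90), Plekhb1 and Mag do not (r = 0.03, against 0.77 without TMM), and the bLR male of family L03 is the point at the upper right of the index panel (r = 0.61 with it and 0.46 without it).

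These relations depended on how RNA quality and library scaling were handled. When the deviations were taken from the full model with the percentages of ribosomal (%rRNA) and intergenic (%intergenic) reads, Mag and Sirt2 had r = 0.52 (permutation p = 0.020, adjusted p = 0.059), Mag and Nkx6-2 had r = 0.0013 (adjusted p = 0.995) and Sirt2 and Nkx6-2 had r = -0.18 (adjusted p = 0.55). Plekhb1 then had r = 0.19 with Mag (adjusted p = 0.55), 0.38 with Sirt2 (adjusted p = 0.19), 0.48 with Nkx6-2 (adjusted p = 0.059) and 0.73 with the index (permutation p = 0.00019). Where CPM was scaled by the library size alone, without TMM, the correlation of Plekhb1 with Mag within subgroups was 0.77 (permutation, adjusted p = 0.00022) and the correlation of Plekhb1 with Sirt2 within subgroups was 0.79 (permutation, adjusted p = 0.00015). The TMM factors ran from 0.689 to 1.345.

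Across genes, after TMM, Plekhb1 was alike to fewer others than Mag, Sirt2 and Nkx6-2 were. These counts were not made for library size alone, where r of Plekhb1 with Mag and Sirt2 was far higher. As a description, 201 of the 13837 other genes had r above 0.5 with Plekhb1 in the deviations from subgroup means and 296 had r below -0.5, against 5388 and 4586 for Mag, 5260 and 4470 for Sirt2 and 4378 and 4870 for Nkx6-2. Among all genes ranked by r with Plekhb1, Nkx6-2 was number 527, Sirt2 number 6302 and Mag number 7443. Among the 1791 genes with a usable name, those most like Plekhb1 were Aldh1a1, a retinaldehyde dehydrogenase (r = 0.67), Cdr2 (0.64), Insc, an adaptor of spindle orientation (0.63), Aldh16a1 (0.63) and Fbl, the nucleolar methyltransferase fibrillarin (0.60). Insc is also in the index.

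For Mag the most alike were Ccnd1, the G1 cyclin (r = 0.96), Stim1, the calcium sensor of the endoplasmic reticulum (0.94), Pdzd8 (0.94), Bbs1 (0.93) and Kank1 (0.93), and Sirt2 was number 282. None of these 5 is an oligodendrocyte list gene, and their r fell to between 0.67 and 0.77 in the full-model residuals. Of the 15 other oligodendrocyte genes, 11 had r above 0 with Plekhb1, as did 57.9% of all genes, with a median of 0.32 beside 0.055 over all genes. In the full-model residuals 12 of 15 were above 0, beside 60.6% of all genes, and the median was 0.46, beside 0.078 over all genes. The highest in the residuals was Josd2 (r = 0.61), and Opalin had 0.58, Ppp1r14a 0.54, Klk6 0.52, Car2 0.485 and Myrf 0.17, while the lowest was Edil3 at -0.20.

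Nkx6-2 shared some of its closest list genes with Plekhb1. Its r with Ppp1r14a was 0.95, number 2 of the 13837 genes, and 0.87 with Josd2, number 62. These stayed high in the full-model residuals, at 0.88 and 0.79. Sirt2 had r = 0.87 with Opalin, and 0.87 in the residuals. Among the 15 list genes these were the highest values in the residuals for Nkx6-2 and for Sirt2, and Plekhb1 had 0.54 to 0.61 with each of Ppp1r14a, Josd2 and Opalin.

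The share of ribosomal reads marked the same division among the 4 genes. It ran from 1.23% to 3.98% over the 23 rats. Within line and sex, r with %rRNA was -0.69 for Mag (permutation p = 0.0013, adjusted p = 0.0051), -0.71 for Sirt2 (permutation p = 0.00053, adjusted p = 0.0042) and 0.55 for Nkx6-2 (permutation p = 0.015, adjusted p = 0.024). For Plekhb1 it was -0.09 (permutation p = 0.69, adjusted p = 0.69). Scaled by library size alone, without TMM, it was -0.75 for Plekhb1 (permutation, adjusted p = 0.00044) and -0.03 for Nkx6-2 (permutation, adjusted p = 0.92), while it stayed at -0.76 for Mag and -0.80 for Sirt2. Spearman's rho was -0.70, -0.71, 0.55 and -0.04, with adjusted p = 0.0043, 0.0024, 0.021 and 0.85. Without the 2 rats farthest from the median, r was -0.72, -0.75, 0.56 and -0.11.

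With %intergenic, r was 0.54 for Mag (permutation p = 0.0076, adjusted p = 0.015), 0.46 for Sirt2 (permutation p = 0.022, adjusted p = 0.030), -0.53 for Nkx6-2 (permutation p = 0.0030, adjusted p = 0.0079) and -0.34 for Plekhb1 (permutation p = 0.15, adjusted p = 0.17), which was 0.11 without TMM. Spearman's rho was 0.54, 0.57, -0.47 and -0.38, with adjusted p = 0.021, 0.019, 0.037 and 0.11. Without the 2 farthest rats r was 0.46, 0.42, -0.42 and -0.35, and none passed (adjusted p = 0.056, 0.056, 0.064 and 0.13). In the edgeR fit, a rise of 1 percentage point of rRNA went with a log2 change of -0.51 (SE 0.09, FDR = 1.8e-05) for Mag, -0.25 (SE 0.05, FDR = 0.00027) for Sirt2, 0.29 (SE 0.08, FDR = 0.0026) for Nkx6-2 and -0.05 (SE 0.07, FDR = 0.55) for Plekhb1. Of all 13838 genes, 10574 passed for %rRNA and 9517 for %intergenic, so in its lack of a call Plekhb1 belonged to the minority.

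**Figure D5:**
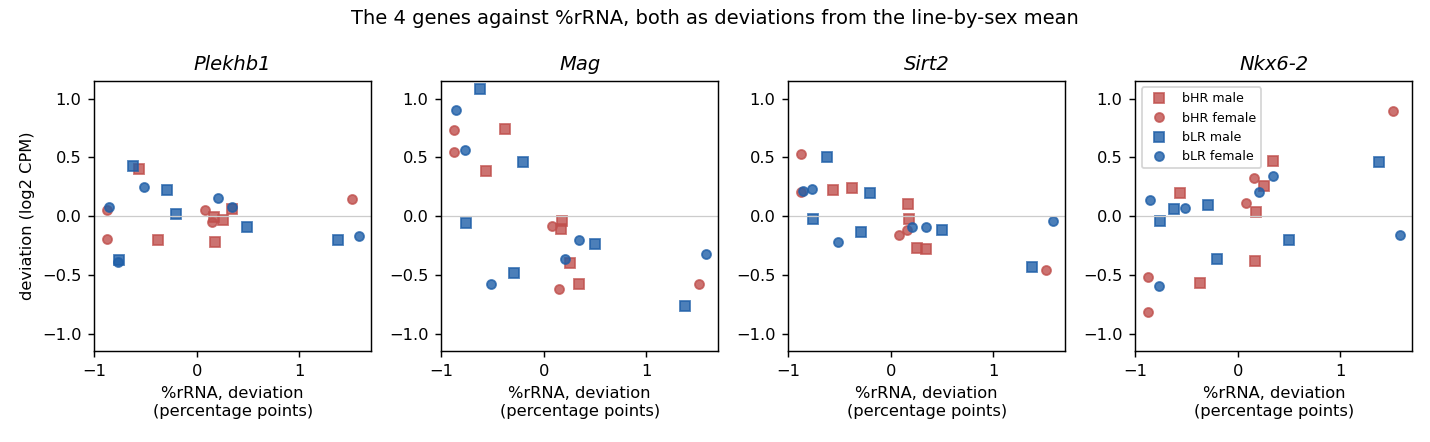
Log2 CPM of each gene against the share of ribosomal reads, both as deviations from the mean of the line and sex, in 23 rats on one vertical scale. Mag (r = -0.69) and Sirt2 (r = -0.71) fell and Nkx6-2 (r = 0.55) rose with %rRNA, and Plekhb1 had r = -0.09. Without TMM, Plekhb1 had r = -0.75 and Nkx6-2 r = -0.03.

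Brothers and sisters were compared over the 11 families with both rats. For the deviations from subgroup means, r was 0.46 for Plekhb1 (permutation p = 0.25, adjusted p = 0.50; rho 0.39, adjusted p = 0.57), 0.59 for Mag (permutation p = 0.071, adjusted p = 0.28; rho 0.53, adjusted p = 0.45), 0.12 for Sirt2 (adjusted p = 0.95 by permutation) and 0.02 for Nkx6-2 (adjusted p = 0.97 by permutation). None passed after adjustment over the 4 genes. Without the 2 families whose sisters lay farthest from the median, r was -0.01 for Plekhb1, 0.0062 for Mag, 0.70 for Sirt2 (permutation p = 0.053, adjusted p = 0.21) and -0.12 for Nkx6-2.

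Within each line the 4 genes were set against behavior, namely the LocoScore and, on the elevated plus maze (EPM), the percentage of time in the open arms, the distance traveled and the time immobile, after subtracting the mean of each sex. None of the 32 relations passed after adjustment. The smallest adjusted p-values, both in bHRs (n = 11), were for the time immobile with Nkx6-2 (r = 0.87, permutation p = 0.0038, adjusted p = 0.11; rho 0.85, adjusted p = 0.17) and with Plekhb1 (r = 0.68, permutation p = 0.0071, adjusted p = 0.11; rho 0.68, adjusted p = 0.20). Without the 2 farthest rats r was 0.69 (permutation p = 0.0645) and 0.62 (permutation p = 0.093), and scaled by library size alone the value for Plekhb1 was -0.36. In bLRs (n = 12) the same relations had r = 0.33 (permutation p = 0.29) for Nkx6-2 and 0.14 (permutation p = 0.71) for Plekhb1. With the LocoScore, Plekhb1 had r = -0.07 in bHRs (permutation p = 0.85, n = 11), which was 0.42 by library size alone, and 0.34 in bLRs (permutation p = 0.34, n = 12).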

How the data were processed

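Hippocampal RNA of 24 F0 rats was sequenced by the authors from poly-A libraries (paired 101-base reads), aligned to Rnor6 with STAR 2.7.3a keeping unique hits, and counted per gene and strand with Subread 2.0.0 on Ensembl release 103. The authors deposited raw gene counts, from which all expression values were computed. Groups, family, age, RIN, %rRNA, %intergenic and behavior came from the labels. Gene names came from the chromosome-ordered gene tables of the study (1934 identifiers), read for names and positions only; a sheet of genes selected for a sex difference was not used.

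Genes that reached 1 CPM in 6 or more of the 23 rats were fitted with edgeR 4.0.16 (quasi-likelihood, TMM) on lineage, sex, %rRNA and %intergenic; the interaction fit used lineage, sex, %rRNA and lineage by sex. FDR is the Benjamini-Hochberg adjusted p over 13838 genes, called below 0.10. Correlations used log2 CPM (prior count 2) and 100000 permutations within subgroups. Alternatives used limma 3.58.1 and DESeq2 1.42.0. The fits were checked on simulated counts with known changes. The members and lists were chosen with earlier results of these data known. The text names the 4 genes, the matched list genes called for lineage or sex or on a set list, the 5 named genes most correlated with Plekhb1 and with Mag, and the neighbours of Plekhb1; Tcf7l2 and Edil3 were added after their values were seen. A fit with family as a block had a consensus correlation of 0.0085. Gene lengths were not used, so levels were not compared between genes. The p-values measure the spread between rats, and each rat used except the bHR male of H05 has a labelled brother or sister among them. Apart from the fits with family as a block, the fits and the permutations within line and sex treat the 23 rats as independent.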

Additional observations from a re-analysis of the deposited data

Results flagged for a closer look

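In 20 groups of 5 or 6 rats (the 4 genes and the oligodendrocyte index in each line and sex), 3 held a rat whose distance to the nearest other rat was a larger share of the group's range than Dixon's 95% limit allows. Chance flags about 1 in 20 groups. All 3 were values of the oligodendrocyte index. The bHR male of family H05 had an index of 5.48 log2 CPM, above the other 5 at 5.16 to 5.26, and was also the highest bHR for Plekhb1. The bLR male of family L03 had 5.65, above the other 5 at 4.86 to 5.15, and was the highest rat for Plekhb1, Mag and Sirt2. The bHR female of family H11 had 5.21, above the other 4 at 5.01 to 5.05, and was the highest bHR for Sirt2.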

How the results depend on the processing

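Of 948 alternative values, 794 were counted as unchanged. A tested value had to keep its direction and its side of the threshold, and a count of genes had to stay within a set ratio. A line difference given without a test had only to move by no more than the SD between rats within subgroups (0.60 for Mag), so a change of sign could still count as unchanged. Unchanged values were 503 of 575 when 1 rat was left out and 291 of 373 otherwise. The lineage Log2FC of Plekhb1 stayed between 0.46 and 0.61 in every setting and between 0.52 and 0.64 without any 1 rat. That of Mag changed sign (-0.13 to 0.28, and -0.17 to 0.07 without 1 rat), as did that of Sirt2 (-0.0024 to 0.27, and -0.03 to 0.08), and that of Nkx6-2 was -0.40 to -0.19 (-0.31 to -0.20). The cause of the changes below was not tested. Correlations with Plekhb1 depended on library scaling, and its sex call passed by a small margin. The lists could be matched by name in 15 further genes, so most of their entries were not analysed here.

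The sex Log2FC of Plekhb1 lost its call with upper quartile scaling (-0.40), RLE size factors (-0.39), library size alone (-0.37), a filter of 1 read in 25% of rats (-0.38), no filter (-0.40), all 24 rats (-0.38), no technical covariates (-0.40), %rRNA as the only technical covariate (-0.42), RIN added (-0.42) and the oligodendrocyte index added (-0.20). With family as a replicate block it was -0.38 and lost its call, the sex Log2FC of Mag turned to 0.022 and 19 genes were called for sex. The block ties the brother and sister of a labelled family, ended the call of Klk6 (-0.40) and changed no other call among the 4 genes and the list. The sex Log2FC of Mag also turned positive with library size alone (0.015), the filter of 1 read (0.011), no technical covariates (0.12) and RIN added (0.015). The interaction of Nkx6-2 turned negative with DESeq2 (-0.020), RLE (-0.020), the filter of 1 read (-0.055), no technical covariates (-0.10), RIN added (-0.027) and the index added (-0.088).

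For lineage, 329 genes were called by DESeq2, 294 with all 24 rats, 56 without technical covariates, 18 in males alone and 8 in females alone. For sex, 157 were called by DESeq2, 21 with library size alone, 13 without technical covariates, 18 with %rRNA only and 24 with the index added. The number of list genes called for lineage was 1 with DESeq2, 1 with %rRNA only and 1 with the index added, each time Opalin. Opalin is itself part of the index, so its call with the index added is not a separate result. Without 1 rat, 97 to 436 genes were called for lineage, the fewest when the H02 bHR male and the most when the H12 bHR female was dropped, 18 to 159 for sex, and 0 to 1 of the list genes. The sex Log2FC was then -0.48 to -0.32 for Plekhb1 and -0.13 to 0.14 for Mag, and the interaction of Nkx6-2 was -0.14 to 0.20.

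In residuals of the full model, r was 0.48 for Plekhb1 with Nkx6-2, 0.52 for Mag with Sirt2, 0.0013 for Mag with Nkx6-2 and -0.18 for Sirt2 with Nkx6-2. With library size alone it was 0.77 for Plekhb1 with Mag, 0.79 with Sirt2 and 0.21 with Nkx6-2 and -0.18 for Sirt2 with Nkx6-2, and the correlation of Mag with Nkx6-2 within subgroups was -0.085. Plekhb1 with Nkx6-2 had 0.26 with all 24 rats, 0.35 without the 2 farthest rats, 0.51 in bHRs alone and 0.39 in bLRs alone. Plekhb1 with Mag had -0.26 without the 2 farthest rats and -0.20 in bHRs alone, and the correlation of Plekhb1 with Sirt2 within subgroups was -0.18 and -0.093. Plekhb1 with the index had 0.68 in bHRs alone and 0.60 in bLRs alone. In bLRs alone Mag with Nkx6-2 had -0.40 and Sirt2 with Nkx6-2 -0.48. Without 1 rat, Plekhb1 had -0.23 to 0.14 with Mag, -0.16 to 0.19 with Sirt2, 0.31 to 0.50 with Nkx6-2 and 0.46 to 0.66 with the index.

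With library size alone, Plekhb1 had -0.75 with %rRNA and 0.11 with %intergenic, and Nkx6-2 had -0.027 and -0.41. Without the 2 farthest rats, r with %intergenic was 0.46 for Mag, 0.42 for Sirt2 and -0.42 for Nkx6-2. Between brothers and sisters Plekhb1 had -0.011 and Nkx6-2 -0.12 without the 2 families whose sisters lay farthest from the median. Nkx6-2 had -0.034 with library size alone for the brothers and TMM for the sisters. For behavior, where nothing passed, signs turned for Plekhb1 in bHRs with the LocoScore (0.15 without the 2 farthest rats, 0.42 with library size alone) and with open-arm time (-0.35), distance (0.41) and immobile time (-0.36) with library size alone, and in bLRs with distance (0.11 with library size alone) and immobile time (-0.0053 without the 2 farthest rats, -0.22 with library size alone). In bLRs they also turned for the LocoScore with Mag (0.0021), Sirt2 (0.046) and Nkx6-2 (-0.077) without the 2 farthest rats, for Sirt2 with open-arm time (0.24, and 0.084 with library size alone) and, with library size alone, for Nkx6-2 with the LocoScore (-0.024) and immobile time (-0.067). The fits with the index as a covariate were not run for Mag and Sirt2, which are part of it, nor for the difference between Plekhb1 and the other 3 genes.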
